A study of Mus musculus with 6 samples.

Results

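The ionotropic glutamate receptor genes Grik1, Grik2, Grik3, Grik4, Grik5 and Grid1 were followed in the prefrontal cortex (PFC) of mice. They were taken by gene symbol, and all 6 were found among the 54429 gene rows of the count tables. RNA sequencing covered 3 groups of mice labelled 6 months old on a mixed C57BL/6 and C3H background, with 2 libraries from 2 mice in each: WT mice given vehicle, PS19 mice (P301S Tau) given vehicle, and PS19 mice given UNC0642. PS19 mice carry a transgene for human tau with the P301S mutation, driven by the mouse prion promoter. UNC0642, which inhibits the histone methyltransferases EHMT1 and EHMT2 that place the repressive H3K9me2 mark, was given by daily injection of 1 mg/kg on 3 days, and vehicle was saline with DMSO. No WT mice given UNC0642 were analysed here, so the drug was compared only among carriers of the transgene.

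Kainate receptors are glutamate-gated cation channels made of 4 subunits. GluK1, GluK2 and GluK3, encoded by Grik1, Grik2 and Grik3, can form channels on their own, whereas GluK4 and GluK5, encoded by Grik4 and Grik5, bind the agonist kainate with high affinity and need one of the other subunits to reach the cell surface. In cortex these receptors act on both sides of the synapse, where they tune transmitter release and slow excitatory currents. Grid1 encodes the delta receptor GluD1, which resembles these channels but serves mainly as a synaptic organizer, held across the cleft to presynaptic neurexins by secreted cerebellins.

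The genes lie on 6 different chromosomes, with positions here from GENCODE M21 for GRCm38. Grik3 is on the plus strand of chromosome 4 from 125490700 to 125714173 and Grik5 on the minus strand of chromosome 7 from 25009849 to 25072346. Grik4 is on the minus strand of chromosome 9 (42518135 to 42944493), Grik2 on that of chromosome 10 (49094833 to 49788766) and Grik1 on that of chromosome 16 (87895900 to 88290265), while Grid1 is on the plus strand of chromosome 14 (34820108 to 35583379). No exon of the 6 genes overlapped an exon on the opposite strand, and the shared exon bases were limited to 91 between Grid1 and the small RNA Gm27617 and 59 between Grik4 and the small RNA Gm24420.

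RefSeq promoter sequences of 300 bases in GRCm38.p6 were matched for Grik2, Grik3, Grik4 and Grik5, and not for Grik1 and Grid1. Those of Grik3 and Grik5, lower in the UNC0642 libraries by unadjusted p-value, and of Grik2, which did not pass the test, are printed. They run 5′ to 3′ on the strand of the gene, with GGGCGG and its complement CCGCCC, the letters of a GC box, in capitals.
Grik3, chr4:125490446-125490745, plus strand: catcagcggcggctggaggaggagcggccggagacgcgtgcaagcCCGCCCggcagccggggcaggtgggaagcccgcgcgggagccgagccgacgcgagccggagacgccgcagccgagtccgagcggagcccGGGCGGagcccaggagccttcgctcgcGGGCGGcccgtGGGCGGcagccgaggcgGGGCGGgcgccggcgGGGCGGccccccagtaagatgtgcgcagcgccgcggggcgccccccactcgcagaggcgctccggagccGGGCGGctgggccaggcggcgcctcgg
Grik5, chr7:25072320-25072619, minus strand: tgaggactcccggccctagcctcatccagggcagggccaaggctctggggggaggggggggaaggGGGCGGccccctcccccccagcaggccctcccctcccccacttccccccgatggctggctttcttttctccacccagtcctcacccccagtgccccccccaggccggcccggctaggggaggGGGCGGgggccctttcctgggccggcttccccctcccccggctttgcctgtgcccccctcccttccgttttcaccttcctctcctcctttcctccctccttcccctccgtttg
Grik2, chr10:49788705-49789004, minus strand: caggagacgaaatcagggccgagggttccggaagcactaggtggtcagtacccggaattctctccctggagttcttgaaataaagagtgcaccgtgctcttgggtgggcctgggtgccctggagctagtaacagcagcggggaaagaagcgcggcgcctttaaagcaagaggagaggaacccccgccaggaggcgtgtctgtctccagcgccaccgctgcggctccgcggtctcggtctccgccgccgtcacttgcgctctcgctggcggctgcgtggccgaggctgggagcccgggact
The Grik3 promoter held 50 CpG dinucleotides and 7 GC boxes, and 0.855% of 32851 promoters of this length held as many CpGs. The Grik5 promoter held 10 CpGs and 2 GC boxes, and 43.5% of promoters held as many CpGs. In the Grik2 promoter there were 26 CpGs and 0 GC boxes. The Grik4 promoter, not printed, held 42 CpGs and 2 GC boxes. A GC box occurred in 35.7% of all promoters, whose median number of CpGs was 7. Of these 4 promoters, that of Grik3 thus held the most CpGs and that of Grik5 the fewest. A link of these counts to differences between the groups was not tested.

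Gene counts summed to between 17005664 and 28972176 per library, and the 6 receptor genes had between 338 counts (Grik1 in UNC0642 replicate 1) and 4521 counts (Grik3 in Tau replicate 1). Values are given as CPM, counts scaled to a common library size with TMM factors. Several libraries stood apart from their labels or their group. Prnp, whose promoter drives the transgene, was at 1652 CPM in the library labelled WT replicate 1 and 873 in WT replicate 2, against 1470 to 1694 in the 4 libraries labelled as transgene carriers, and Mapt, the tau gene, was at 576 and 449 against 571 to 614. The genotype label of the library labelled WT replicate 1 therefore goes against its Prnp level, and fits against WT were repeated without it. Both Tau libraries had high Xist (5340 and 4104 counts) and both UNC0642 libraries low Xist (2 and 4 counts), while WT had one of each (5 and 8107 counts), so that a sex difference and the drug cannot be told apart in UNC0642 against Tau. Tau replicate 2 had the highest summed level of 8 oligodendrocyte markers, 5423 CPM against 1431 to 2915, and of 7 striatal markers, 226 CPM against 84.0 to 104. Neuronal and cortical excitatory markers were detected in every library. In bulk tissue, fewer cells of a type and less RNA per cell cannot be told apart.

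Grik5 and Grik3 were the most abundant of the 6 genes per length of transcript, and Grik4 and Grik1 the least. In WT libraries the level per kilobase of merged exon was 19.7 ± 0.875 CPM per kilobase (SD, n = 2) for Grik5, 16.9 ± 1.15 for Grik3, 11.5 for Grid1, 8.49 for Grik2, 4.64 for Grik4 and 3.18 for Grik1. The ranges of neighbours in this order did not overlap in WT, and the order was the same in WT replicate 2 alone, from 20.3 CPM per kilobase for Grik5 to 3.25 for Grik1. In Tau mice Grik5 (17.9 CPM per kilobase) and Grik3 (17.0) overlapped, as they did in UNC0642-treated mice (13.4 and 12.7). With the longest transcript of each gene as its length, Grik5 remained first at 21.6 CPM per kilobase, averaged over all libraries, but Grik2 (11.7) came close to Grid1 (12.3) and Grik1 (5.81) stood above Grik4 (4.45), so only the upper end of the order was the same under both lengths.

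**Figure D1:**
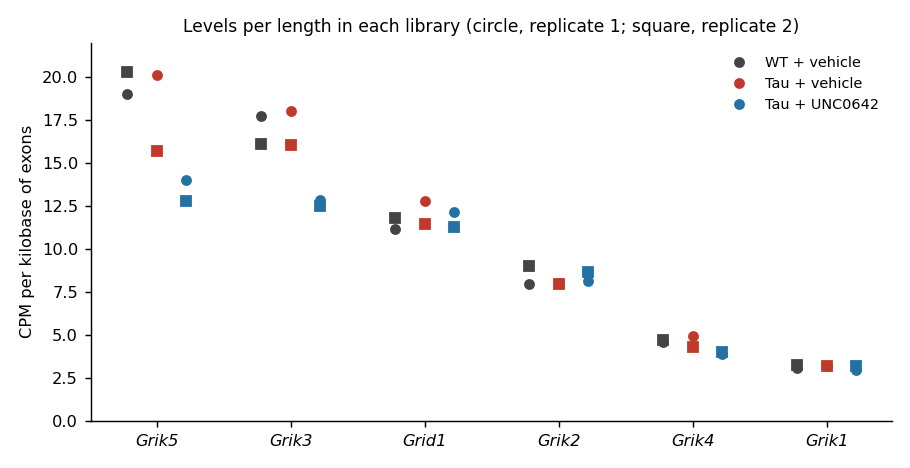
Level of the 6 receptor genes in CPM per kilobase of merged exon, with 1 point per library (circles, replicate 1; squares, replicate 2) coloured by group. Grik5 and Grik3 lead in every group and are nearest to Grid1 in the UNC0642 libraries.

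In Tau mice compared with WT mice, no receptor gene passed the threshold, and the groups overlapped for all 6, whereas among all genes tested Tau lay above WT without overlap in 21.9% and below in 21.4%. Following the study's rule, a gene passed, or was called, where edgeR's quasi-likelihood test gave an unadjusted p-value under 0.05 and the groups differed at least 1.2-fold. The number called was 0 of 6, beside 9.81% of the 20409 genes tested (3.72% higher and 6.1% lower), and the smallest adjusted p was 0.673. At an adjusted p under 0.05 there were 0 of 6 in edgeR, where 0.157% of genes passed, in the DESeq2 Wald test (0.75%) and in limma-voom (0.122%), and by unadjusted p-value alone 0 of 6 were under 0.05 in each. The largest log2 fold change in size was that of Grik5, -0.13 with a standard error of 0.11 (adjusted p = 0.673, edgeR quasi-likelihood). Grik5 was at 98.4 and 105 CPM in WT and at 104 and 81.2 CPM in Tau replicates 1 and 2, so the lower mean rested on Tau replicate 2, the library with high oligodendrocyte and striatal markers. Without Tau replicate 1 the log2 fold change was -0.32 and passed, and without Tau replicate 2 it was 0.04. Without the library labelled WT replicate 1, still 0 of the 6 genes passed. The median log2 fold change was 0.0016 for the 6 genes and -0.0001 for all genes tested.

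In Tau mice given UNC0642 compared with Tau mice given vehicle, Grik3 and Grik5 were 25.7% and 25.5% lower, while the other 4 genes did not pass the test. Thus 2 of 6 receptor genes were called lower, beside 3.95% of all genes tested, and 0 were called higher, beside 3.73% (7.69% in either direction). Neither passed after Benjamini-Hochberg adjustment in edgeR or limma-voom, where 0.0196% of all genes did in each, and Grik3 alone did in the DESeq2 Wald test (adjusted p = 0.0186), where 0.348% of all genes did. The median log2 fold change of the 6 genes was -0.14, beside -0.0023 for all genes tested. The 6 genes and the partner lists below were chosen with earlier results of these data known. Shares and medians set beside all genes therefore describe them and test no excess.

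**Figure D2:**
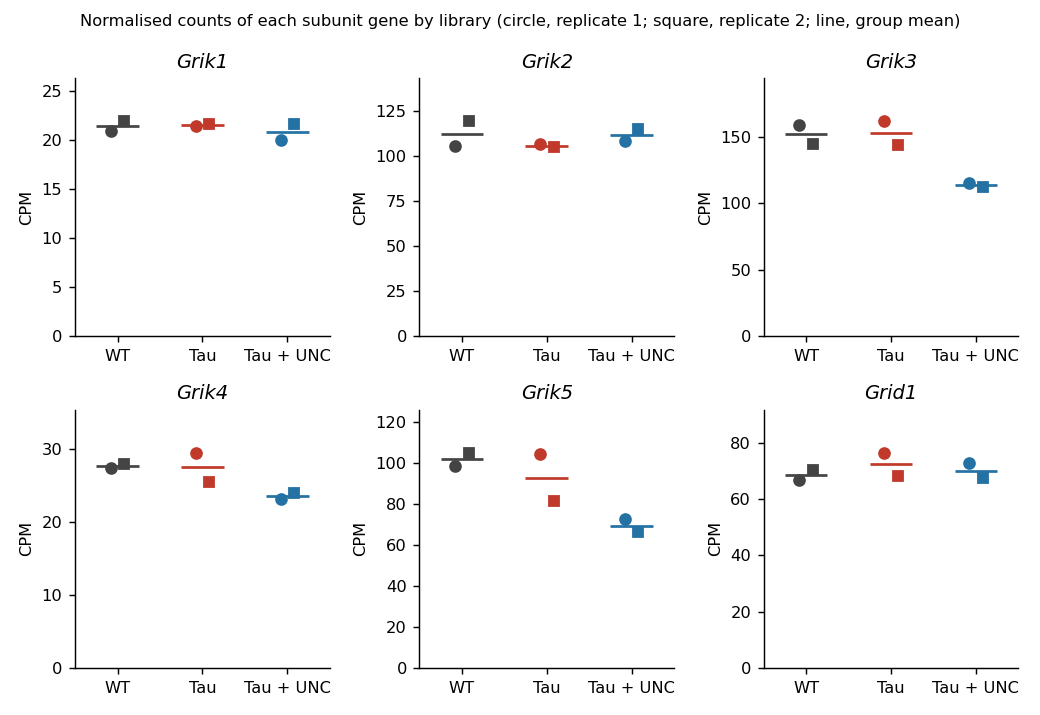
CPM of each receptor gene in the 6 libraries, with points for libraries (circles, replicate 1; squares, replicate 2) and a bar at the mean of each group. Both UNC0642 libraries sit below all WT and Tau libraries for Grik3, Grik4 and Grik5, as for 9.25% of all genes.

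Grik3, whose subunit GluK3 forms channels of low glutamate sensitivity found largely at presynaptic sites, was at 159 and 145 CPM in WT, at 162 and 144 CPM in Tau mice, and at 115 and 112 CPM after UNC0642. All 4 vehicle libraries lay above both UNC0642 libraries, as they did for 9.25% of all genes tested (8.94% in the other direction). The fall against Tau was 25.7%, a log2 fold change of -0.43 with a standard error of 0.086 (adjusted p = 0.252, edgeR quasi-likelihood). When each library was left out in turn, it ranged from -0.51 to -0.34. Leaving out a Tau or UNC0642 library leaves a single mouse in that group. With log2 Xist CPM as a covariate it was -0.57 and passed, but since Xist is high in both Tau and low in both UNC0642 libraries, the slope of this covariate rests on the 2 WT libraries alone, one of which goes against its label.

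Grik5, which encodes the high-affinity partner subunit GluK5, was at 104 and 81.2 CPM in Tau and at 72.5 and 66.0 CPM after UNC0642. The groups did not overlap, which held in this direction for 20.9% of all genes, and the Tau libraries lay far apart. The fall was 25.5%, a log2 fold change of -0.42 with a standard error of 0.12 (adjusted p = 0.395, edgeR quasi-likelihood). Without Tau replicate 1 it was -0.23 and no longer passed, without Tau replicate 2 it was -0.59, and with the Xist covariate it was -0.35 and did not pass.

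Grik4, which encodes the other high-affinity subunit, was at 29.5 and 25.5 CPM in Tau and at 23.1 and 23.9 CPM after UNC0642. The groups again did not overlap, and the log2 fold change of -0.23 with a standard error of 0.11 did not pass (adjusted p = 0.596, edgeR quasi-likelihood). Without Tau replicate 2 it passed, at -0.33.

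Grik2, which encodes the widely expressed subunit GluK2, was at 107 and 105 CPM in Tau and at 108 and 115 CPM after UNC0642, a log2 fold change of 0.08 with a standard error of 0.085. The groups did not overlap, which held in this direction for 20.4% of all genes, but the difference was smaller than its standard error. Grik1 was at 21.4 and 21.6 CPM in Tau and at 20.0 and 21.6 CPM in treated mice (-0.05, standard error 0.11), and Grid1 at 76.3 and 68.3 CPM in Tau and at 72.6 and 67.4 CPM in treated mice (-0.05, standard error 0.092). Both overlapped between the groups.

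The drop of Grik3 and Grik5 could also be set beside Grik2 within each library. The log2 ratio of Grik3 to Grik2 CPM was 0.60 and 0.45 in Tau and 0.09 and -0.03 after UNC0642, and that of Grik5 to Grik2 was -0.03 and -0.37 in Tau and -0.58 and -0.80 in treated mice. Both ratios were lower in both treated libraries than in any vehicle library. Against Tau they differed by -0.500 and -0.486 (exact permutation test, two-sided, p = 0.333 each, the smallest that 2 against 2 libraries allow). These ratios use the same counts as the calls of Grik3 and Grik5, so they restate the levels above and add no support. The other ratios taken differed less, by -0.374 for Grik3 to Grik1 and -0.187 for Grik5 to Grik4. Grik2 lies in the lowest of 10 bins of GC content, where the median log2 fold change of all genes was 0.12. The part of that trend in the ratios over Grik2 was not tested. Shares of the summed level of Grik1 to Grik5 per kilobase were also taken. That of Grik5 was 36.3% and 38.0% in WT, and overlapped between Tau (33.3% to 37.1%) and treated mice (31.0% to 33.5%). The share of Grik3 was 33.2% and 34.0% in Tau and 30.7% and 30.4% in treated mice. In WT it was 33.8% and 30.2%, so WT replicate 2 lay below both treated libraries. The share of Grik2 was 15.2% and 16.9% in WT, 14.8% to 16.8% in Tau and 19.5% to 21.1% in treated mice. The sum itself was 54.3 and 47.2 CPM per kilobase in Tau and 41.9 and 41.2 in treated mice.

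Against WT mice, UNC0642-treated Tau mice again had less Grik3 and Grik5, with 2 of 6 genes called lower, beside 5.69% of all genes, and 0 called higher, beside 3.77% (9.47% in either direction). After adjustment 0 of 6 passed in edgeR (0.216% of all genes) and limma-voom (0.201%), and Grik3 and Grik5 did in the DESeq2 Wald test (1.32%). This comparison shares its treated libraries and its choice of genes with the previous one. The log2 fold change of Grik3 was -0.42 with a standard error of 0.086 (adjusted p = 0.100, edgeR quasi-likelihood), a fall of 25.1%. For Grik5 it was -0.55 with a standard error of 0.12 (adjusted p = 0.103, edgeR quasi-likelihood), a fall of 31.9%. Both stayed lower whichever library was left out, and without the library labelled WT replicate 1 they were at -0.35 and -0.60. In the 3 libraries with low Xist, UNC0642 replicates 1 and 2 and WT replicate 1, the log2 fold changes were -0.48 for Grik3 and -0.51 for Grik5, with the spread resting on the UNC0642 pair. The WT library in this subset is the one whose Prnp level goes against its label. Subsets by Xist level were added after the data were seen. Grik4 was at 27.4 and 28.0 CPM in WT, above both treated libraries, as held without overlap for 22.3% of all genes (22.1% in the other direction), and did not pass (-0.24, standard error 0.11, adjusted p = 0.438, edgeR quasi-likelihood), nor without the library labelled WT replicate 1 (-0.25). The log2 fold changes of Grik1, Grik2 and Grid1 were -0.04, -0.01 and 0.03, and -0.07, -0.10 and -0.01 without that library, none of which passed.

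**Figure D3:**
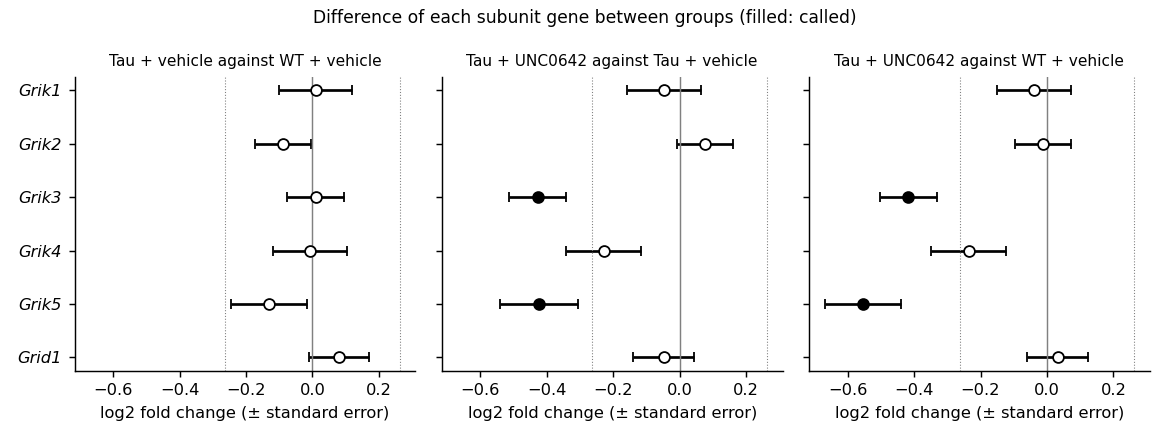
Log2 fold change of each receptor gene in the 3 comparisons, with bars for the standard error and filled symbols for genes called. Grik3 and Grik5 are called lower in both comparisons with UNC0642 and no gene is called in Tau against WT.

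Genes with GC-rich transcripts were lower with UNC0642 in general, and Grik3 and Grik5 have the most GC-rich transcripts of the 6 genes. GC content of the longest transcript was 61.7% for Grik5, 54.2% for Grik3, 52.2% for Grik4, 49.9% for Grid1, 47.9% for Grik1 and 37.9% for Grik2. In UNC0642 against Tau, the median log2 fold change of all genes, in 10 bins of GC content, ran from 0.12 in the lowest bin, which holds Grik2, to -0.04 in the bin of Grik3 and -0.07 in the highest bin, which holds Grik5, and the share called lower ran from 1.24% to 6.08% and 7.56%. With an offset for GC content, an alternative added after the data were seen, Grik3 was at -0.38 and Grik5 at -0.34, both still called, and Grik2 was at -0.0044. Against WT, Grik3 and Grik5 were at -0.39 and -0.43 with the offset, both called. Without the offset, the share of all genes called lower in UNC0642 against WT was 2.37% in the lowest bin. It was 7.27% in the bin of Grik3 and 12.8% in that of Grik5, where the median log2 fold changes were -0.04 and -0.12.

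**Figure D4:**
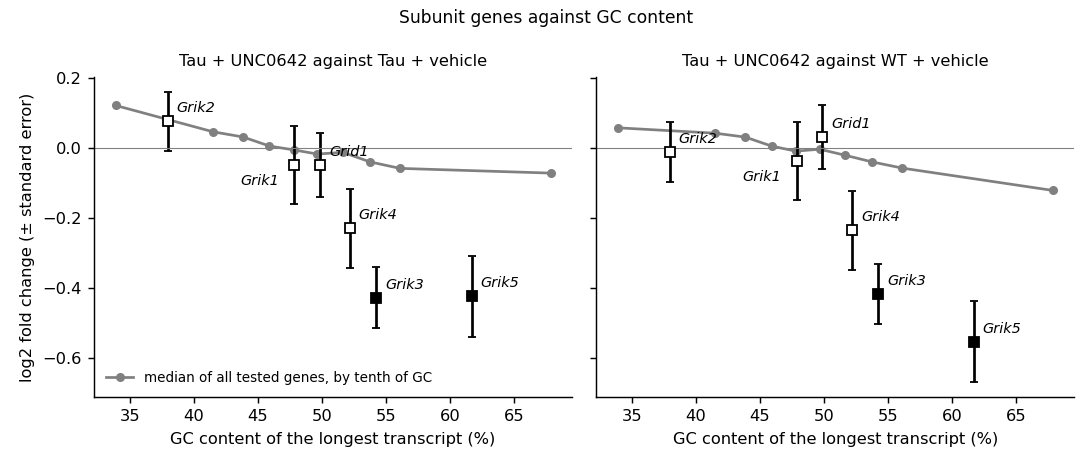
Log2 fold change against GC content of the longest transcript for the 6 receptor genes (squares, with standard errors, filled where called) and the median of all genes in each of 10 bins of GC content (grey line). Grik3 and Grik5 lie below the grey line in both comparisons with UNC0642, and Grik2 lies near it.

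Cell type markers were compared between Tau and treated mice beside these results. Of 12 marker lists, all detected in each library, the summed level was lower in both treated libraries than in both Tau libraries for 6, higher for 2 and overlapping for 4. Of all single genes tested, 20.9% were lower and 20.4% higher without overlap. The lower sums were those of oligodendrocyte progenitor markers (155 and 159 CPM in Tau, 124 and 132 after UNC0642), microglia (210 and 217 against 187 and 187), striatal neurons (104 and 226 against 90.0 and 88.6), cortical excitatory neurons (369 and 327 against 318 and 306), deep layer neurons (350 and 331 against 304 and 324) and interneurons (859 and 864 against 802 and 794). Members of a list did not all move alike. Of the 4 excitatory markers Neurod6 was higher after UNC0642 (118 and 106 against 122 and 128 CPM). Of the deep layer markers Bcl11b (120 and 103 against 89.3 and 89.1) and Foxp2 (24.5 and 35.1 against 23.8 and 23.2) were lower, while Tle4, Fezf2 and Crym overlapped. The pan-neuronal sum was higher (4756 and 4739 against 5224 and 5366 CPM) through Syt1 (1263 and 1134 against 1576 and 1942), while Rbfox3 (139 and 132 against 126 and 108) and Stmn2 (292 and 276 against 256 and 243) were lower and Snap25 overlapped. Endothelial markers were at 75.2 and 80.3 CPM in Tau and at 81.9 and 109 after UNC0642. The 8 oligodendrocyte markers were at 2009 and 5423 CPM in Tau and at 2082 and 2225 after UNC0642, apart only in Tau replicate 2. The part of these differences in the results for Grik3 and Grik5 was not tested.

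Of 46 genes listed as partners of kainate and delta receptors or as other genes of glutamate signalling, 44 were tested. In Tau against WT 0 were called higher and 3 lower, beside 3.72% and 6.1% of all genes. In UNC0642 against Tau 3 were called higher and 0 lower, beside 3.73% and 3.95%, and in UNC0642 against WT 2 higher and 5 lower, beside 3.77% and 5.69%. None had an adjusted p under 0.05, and their median log2 fold changes were -0.02, -0.03 and -0.03. Klhl17 was not analysed here, and the NMDA receptor subunit gene Grin3b, at 0 to 8 counts, was too low to test.

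**Figure D5:**
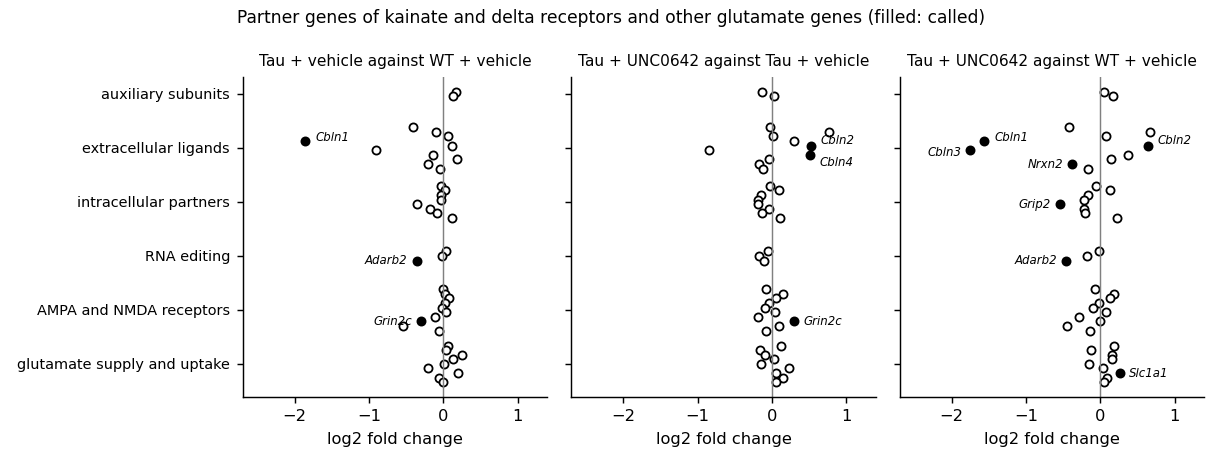
Log2 fold change of tested partner and glutamate genes in the 3 comparisons, one row of points for each of 6 lists, with called genes filled and named. Cbln2 is called higher in both comparisons with UNC0642.

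The auxiliary subunits Neto1 and Neto2, which bind kainate receptors and slow their gating, were not called in any comparison. Neto2 was at 98.6 and 92.8 CPM in WT, at 105 and 106 in Tau and at 110 and 105 in treated mice. Neto1 was at 62.1 and 65.6 CPM in WT, at 75.5 and 68.5 in Tau and at 73.7 and 58.4 in treated mice.

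Of the 10 extracellular ligand genes, Cbln2 and Cbln4 rose with UNC0642 against Tau, 2 of 10 beside 3.73% of all genes. Cbln2, which encodes a cerebellin that binds neurexins and GluD1, was at 72.5 and 72.2 CPM in WT, at 89.0 and 67.1 in Tau and at 112 and 114 in treated mice. Both treated libraries lay above all others, as held for 8.94% of all genes tested. The log2 fold change was 0.53 with a standard error of 0.12 against Tau (adjusted p = 0.327, edgeR quasi-likelihood) and 0.64 against WT (adjusted p = 0.0686, edgeR quasi-likelihood). It passed under each alternative run for it, from 0.34 without Tau replicate 2 to 0.75 without Tau replicate 1 in the comparison with Tau. Grid1, whose product it binds, did not pass in either comparison. Cbln4, a related cerebellin, was at 5.399 and 6.126 CPM in Tau and at 8.76 and 7.68 in treated mice (log2 fold change 0.51, adjusted p = 0.517, edgeR), but did not pass without Tau replicate 1 (0.42), without UNC0642 replicate 1 (0.42) or with the Xist covariate (0.13).

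Cbln1, the cerebellin best known from cerebellar synapses, was lower in Tau than in WT (log2 fold change -1.86, standard error 0.46, adjusted p = 0.209, edgeR quasi-likelihood). It was at 9.11 CPM in the library labelled WT replicate 1 and at 3.05 in WT replicate 2, against 1.72 and 1.60 in Tau and 1.66 and 2.38 in treated mice, so that much of the difference came from 1 library. Without that library it was -0.87 in Tau against WT, still called, and -0.58 in treated Tau against WT, no longer called. Cbln3 had 4 to 28 counts per library and was called lower in treated Tau against WT (-1.75, adjusted p = 0.297, edgeR), a call lost without WT replicate 2 (-1.31), without UNC0642 replicate 1 (-1.68), without UNC0642 replicate 2 (-1.84) or with the Xist covariate (-1.29), and kept without the library labelled WT replicate 1 (-2.10). The neurexin gene Nrxn2, at 223 and 240 CPM in WT and 185 and 171 in treated mice, was lower too (-0.38, adjusted p = 0.247, edgeR), also without the library labelled WT replicate 1 (-0.43), and was no longer called with the GC offset (-0.24) or without UNC0642 replicate 2 (-0.33).

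Among 8 intracellular partners tested, 1 was called lower in treated Tau against WT, beside 5.69% of all genes. This was the scaffold gene Grip2 (-0.54, adjusted p = 0.354, edgeR). Its level was 27.9 CPM in the library labelled WT replicate 1 and 13.4 to 17.8 in all others, and without that library the log2 fold change was -0.13. The call was also lost without UNC0642 replicate 1 (-0.38) and with the GC offset (-0.46). Dlg1, a synaptic scaffold and the most counted of these partners, was at 323 to 361 CPM and not called.

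The active members of the ADAR family edit the Grik1 and Grik2 transcripts. Of 3 genes of this family, 1 was called lower in Tau and in treated Tau against WT, beside 6.1% and 5.69% of all genes. This was Adarb2, which has no known editing activity (-0.36, adjusted p = 0.387, edgeR, in Tau and -0.46, adjusted p = 0.279, edgeR, in treated Tau). It was at 45.7 CPM in the library labelled WT replicate 1 and at 27.3 to 33.9 in the others, and without that library neither call remained (-0.13 and -0.23). The first was also lost without Tau replicate 1 (-0.23) and with the Xist covariate (-0.16), and the second without UNC0642 replicate 1 (-0.38). The editing enzyme gene Adarb1 was at 279 and 262 CPM in WT, at 285 and 252 in Tau and at 239 and 238 in treated mice and was not called, with a log2 fold change of -0.17 against Tau.

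Of the other ionotropic glutamate receptors, 10 of 11 AMPA and NMDA receptor genes were tested. In Tau against WT 1 was called lower, beside 6.1% of all genes. With UNC0642 against Tau 1 was called higher, beside 3.73%. Grin2c, an NMDA receptor subunit, was at 35.6 and 31.6 CPM in WT, at 26.8 and 27.8 in Tau and at 31.9 and 35.2 in treated mice. It was called lower in Tau against WT (-0.30, adjusted p = 0.339, edgeR) and higher with UNC0642 against Tau (0.30, adjusted p = 0.482, edgeR), comparisons that share the Tau libraries. The first call was lost without the library labelled WT replicate 1 (-0.21), without Tau replicate 1 (-0.27), with the Xist covariate and with the GC offset, and the second without Tau replicate 1 (0.27), without UNC0642 replicate 2 (0.23) and with the Xist covariate (0.14). Gria2, the most counted AMPA receptor gene, was at 1169 and 1105 CPM in Tau and at 1274 and 1250 in treated mice and was not called (0.15, standard error 0.075).

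Among 9 genes of glutamate supply and uptake, 1 was called higher in treated Tau against WT, beside 3.77% of all genes. This was Slc1a1, a neuronal glutamate transporter gene, with 77.5 and 78.9 CPM in WT and 94.7 and 93.1 in treated mice (0.26, adjusted p = 0.260, edgeR). Its fold change lay just past the threshold, and the call was lost without the library labelled WT replicate 1 (0.25), without UNC0642 replicate 1 (0.25), with library size alone (0.23) and with the GC offset (0.24). The astrocyte glutamate transporter gene Slc1a2 was at 3047 to 3605 CPM and not called.

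Across the 6 libraries, Grik3, Grik4 and Grik5 varied together. On log2 CPM, Pearson's r was 0.913 (Spearman's rho 0.886) between Grik3 and Grik4, 0.906 (0.829) between Grik3 and Grik5 and 0.945 (0.886) between Grik4 and Grik5, whereas it was -0.37 (-0.314) between Grik2 and Grik3. These are descriptions over 6 points that share the 3 groups, depth and GC trend. Among 12489 genes, those most like Grik3 were Cep131 (r = 0.990), Pcsk4 (0.989) and Ivd (0.988), those most like Grik5 were Gpr153 (0.994), Neurl4 (0.993) and Cacna1i (0.991), and those most like Grik4 were Fam104a (0.999), Ncam1 (0.990) and Tsc2 (0.989). Closest to Grik1 among the genes named here were Rmc1 (0.981) and Sag (0.979), to Grik2 Cxadr (0.973), Ctnnd1 (0.969) and Col14a1 (0.967), and to Grid1 Sept6 (0.986), Ccdc43 (0.979) and Ghrl (0.971). None of these nearest genes was shared between members.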

How the data were processed

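Total RNA of PFC tissue was depleted of ribosomal RNA and sequenced from stranded libraries, 2 mice per group. The authors trimmed reads with Cutadapt, aligned them with TopHat2 and deposited unnormalized counts per gene from featureCounts. The labels' processing notes name mm10, and the strand setting of the counting was not given in the sources used here. In 2 libraries 26 gene names had become dates and were joined by position.

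Genes were filtered with filterByExpr (minimum count 10, total 15), scaled by TMM and fitted over all 6 libraries with edgeR 4.0.16 (R 4.3.3, quasi-likelihood test, 3 residual degrees of freedom, biological coefficient of variation 12.3%), with Benjamini-Hochberg adjustment over 20409 genes. The scripts were tested on simulated data. Standard errors are those implied by the test. P-values rest on a spread between mice that was pooled over the 3 groups, with 2 mice in each, and estimated with the help of all genes tested. Alternatives used DESeq2 1.42.0, limma 3.58.1, other scalings and filters, covariates and left-out libraries. With a library left out, its group has a single mouse, so whether a gene passed there rests on the spread in the other groups. Ratios were tested with numpy 2.4.6 and pandas 2.3.3, and figures were drawn with matplotlib 3.10.9. GC content was matched for 20229 tested genes. A floor of 3 counts and all depth statements cover counting error only.

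Members and lists were chosen with earlier results of these data known. Named genes are the 6 receptor genes, listed partners called in at least 1 comparison, the most counted gene of each list, 4 library checks (Xist, Ddx3y, Mapt and Prnp), and the 3 genes most correlated with each receptor gene over log2 CPM (prior count 2) among tested genes with a mean log2 CPM of at least 1, leaving out Gm, Rik and -ps symbols. Neto1, the remaining auxiliary subunit gene, was named after its values were seen, as were the marker genes named singly, and Klhl17 and Grin3b because they were not tested. A few genes that this rule selects are not reported here. Ddx3y had 1705 to 2411 counts in the 3 libraries with low Xist and 2 to 18 in the others.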

Additional observations from a re-analysis of the deposited data

How the results depend on the processing

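Grik3 and Grik5 kept their direction under every alternative in both comparisons with UNC0642. The number of receptor genes called lower, 2 in each, became 0 in both at an adjusted p under 0.05 or at a fold change of 1.5, and in UNC0642 against Tau it was 1 with the Xist covariate and 1 to 3 when a library was left out. In Tau against WT it was 0 to 1 when a library was left out. With the longest transcript as length, Grik1, Grik2 and Grik5 were at 5.81, 11.7 and 21.6 CPM per kilobase. Signs differed from the fit over all 6 libraries only where a value passed neither in that fit nor in the alternative. With the Xist covariate, log2 fold changes were 0.0196 for Grid1 and 0.0235 for Grik1 in UNC0642 against Tau, 0.0013 for Grik1 and 0.0825 for Grik2 in UNC0642 against WT, and -0.0222 for Grik1 in Tau against WT. With the GC offset they were -0.0044 for Grik2 in UNC0642 against Tau and -0.0324 for Grik1 and -0.0162 for Grik3 in Tau against WT. With library size alone they were -0.0066 for Grid1 in UNC0642 against WT and -0.0597 for Grik1 and -0.0607 for Grik3 in Tau against WT, and the last 2 were -0.0124 and -0.0117 with at least 10 counts in every library. Grik2 was at 0.0780 in the low-Xist libraries (UNC0642 against WT), Grik1 at -0.0253 in the high-Xist libraries and Grik4 at 0.0026 in limma-voom (Tau against WT). Leaving out libraries gave, in Tau against WT, -0.0042 to 0.1607 for Grid1, -0.0278 to 0.0461 for Grik1, -0.1741 to 0.0020 for Grik2, -0.0756 to 0.0928 for Grik3, -0.1168 to 0.0934 for Grik4 and -0.3229 to 0.0384 for Grik5. It gave -0.1288 to 0.0356 for Grid1 and -0.1038 to 0.0032 for Grik1 in UNC0642 against Tau, and -0.0206 to 0.0836 for Grid1, -0.0959 to 0.015 for Grik1 and -0.0963 to 0.0770 for Grik2 in UNC0642 against WT. The cause was not tested. Grik4 passed in UNC0642 against WT with library size alone (-0.2742).

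Replicate numbers did not pair the libraries (r of replicate differences -0.034 to -0.003). A replicate block changed no call of a receptor gene, with Grik3 and Grik5 both at -0.42 in UNC0642 against Tau, and over all genes it moved calls from 1244 lower and 759 higher to 1100 and 692 in Tau against WT. Over all genes the Tau against WT calls were 1742 lower and 415 higher with library size alone, 1890 and 898 without a filter, 744 and 578 in the DESeq2 Wald test and 933 and 903 with the Xist covariate. In UNC0642 against Tau, with 807 lower and 762 higher, they were 635 and 900, 1169 and 1173, 561 and 494, and 798 and 814, and in UNC0642 against WT, with 1162 and 770, they were 1479 and 536, 1672 and 914, 740 and 657, and 1058 and 991. Genes with an adjusted p under 0.05 numbered 32, 4 and 44 in the 3 comparisons, 153, 71 and 270 in the Wald test and 656, 483 and 733 without a filter, where 0, 2 and 2 receptor genes were among them. With only the compared groups in each fit such genes numbered 5, 25 and 49, with 0, 0 and 1 receptor genes among them. That gene was Grik5 in UNC0642 against WT (adjusted p = 0.0427, edgeR quasi-likelihood). The 338 counts or more behind each receptor gene value limit precision less than the 2 mice per group.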
